A study of Mus musculus with 2 samples.

Results

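The Notch pathway was read through 8 of the 32285 genes counted in 2 droplet-based single-cell RNA-sequencing libraries of mouse fetal liver (FL). They are the receptors Notch1 and Notch2, the ligands Dll4 and Jag1, the DNA-binding effector Rbpj, the target genes Hes1 and Hey1, and the E3 ubiquitin ligase Dtx4. One library held E14.5 LSK cells (lineage-negative, SCA1-positive, cKIT-positive progenitors) of IκBα WT embryos, 2 pooled, and the other held the same sort from IκBα KO embryos, 3 pooled, both of the outbred strain CD1. By title the samples are LT-HSCs, but their cell type is given as LSK. The question was how IκBα, the inhibitor of NF-κB encoded by Nfkbia, bears on the stem and progenitor cells of the FL, and here which cells carried Notch transcripts in each genotype.

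Notch signalling passes between touching cells. A Delta or Jagged ligand on one cell binds a Notch receptor on its neighbour, proteases then free the intracellular part of the receptor, and this part joins RBPJ in the nucleus to switch on genes such as Hes1 and Hey1. In the embryo the pathway is known for its part in artery formation, in the emergence of blood stem cells from endothelium and in the choice of the T cell fate by lymphoid progenitors.

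After removal of barcodes with under 1000 detected genes or over 20% mitochondrial counts, 3458 of 3840 WT and 4417 of 4928 KO cells remained. The WT library held 109122324 counts of unique molecular identifiers (UMIs, 1 per captured transcript) and the KO library 100029143, and the median cell held 28065 UMIs in WT and 19560 in KO. Nfkbia, the targeted gene, gave 1478 UMIs in the WT library and 7 in the KO library. Cells with Y-linked but no Xist UMIs made up 0.116% of the WT library and 17.4% of the KO library, and 7 barcodes were present in both libraries. Cells were placed in a class by marker genes counted after thinning each cell to 5000 UMIs. An endothelial-gated cell needed 4 of 9 markers such as Kdr, Stab2 and Cdh5, a stem-gated cell 2 of 8 such as Hlf, Mecom and Procr, and a lymphoid-gated cell 2 of 9 such as Il7r and Flt3. None of the 8 Notch pathway genes was a marker. The endothelial gate held 56 WT and 78 KO cells, the stem gate 341 and 332, and the lymphoid gate 58 and 65. A further 1264 WT and 1348 KO cells passed no gate and are called ungated. All markers of a class were more abundant inside its gate than outside, with the exception of the lymphoid marker Dntt, which was at 0 in the lymphoid gate of both libraries. The gates were defined by these same markers, so this is a description and not an independent check of the classes. The endothelial gate had few transcripts of the sort's own marker Kit, at 8.96 CPM (UMIs per 1000000 UMIs of the class) in WT and 31.0 in KO against 110 and 103 in the stem gate, and the pan-leukocyte gene Ptprc stood at 6.97 and 8.74 CPM there against 78.5 and 72.8. The erythroid gate held 41.7% of WT and 47.6% of KO cells with at least 5000 UMIs. There Ly6a, which encodes SCA1, stood at 0.857 and 0.955 CPM against 29.6 and 39.1 in the stem gate, and Kit at 32.0 and 28.0. The transcripts of this large class thus did not bear out the name of the sort. Each genotype was 1 library, so no difference between genotypes could be tested against replicates. The 95% intervals below (Poisson for a level, conditional binomial for a ratio, both exact) cover counting error only, and a UMI level is not scaled for gene length.

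The receptors and ligands of the Notch family were then placed on the genome (GRCm38, GENCODE annotation). Notch1 (ENSMUSG00000026923) lies on the minus strand of chromosome 2 at 26457903 to 26516663, Jag1 (ENSMUSG00000027276) on the same strand and chromosome at 137081456 to 137116644, and Dll4 (ENSMUSG00000027314) on the plus strand of chromosome 2 at 119325784 to 119335962. Notch2 (ENSMUSG00000027878) lies on chromosome 3 at 98013527 to 98150361. Rbpj (ENSMUSG00000039191) lies on chromosome 5 at 53466152 to 53657362, Hes1 (ENSMUSG00000022528) on chromosome 16 at 30064384 to 30067796, Hey1 (ENSMUSG00000040289) on chromosome 3 at 8663359 to 8667256 and Dtx4 (ENSMUSG00000039982) on chromosome 19 at 12466338 to 12501454. All 8 are protein-coding. Gene models on the opposite strand overlap Notch1, Rbpj and Dll4, and predicted models on the same strand overlap Notch2.

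Promoter windows of 300 bases, from 250 before to 50 after the start site, were matched for 5 of the 8 genes in RefSeq (GRCm38.p6), namely Notch1, Notch2, Rbpj, Jag1 and Dll4. The start sites are those of RefSeq, and the windows of Notch1 and Rbpj lie inside the GENCODE spans given above. The windows of Notch1 and Dll4 are shown because these were the receptor and the ligand whose levels peaked in endothelial-gated cells, and that of Rbpj because it alone held the letters TGGGAA or TTCCCA, the core that RBPJ itself binds, which stand in capitals. The windows are printed 5′ to 3′ on the strand of the gene.
Notch1, minus strand, chr2:26503773-26504072: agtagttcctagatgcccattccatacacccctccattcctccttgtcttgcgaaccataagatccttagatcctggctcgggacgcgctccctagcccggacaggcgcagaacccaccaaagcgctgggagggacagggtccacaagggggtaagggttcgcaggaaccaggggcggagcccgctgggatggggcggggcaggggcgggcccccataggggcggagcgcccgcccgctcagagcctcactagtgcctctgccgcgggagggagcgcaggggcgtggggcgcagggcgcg
Dll4, plus strand, chr2:119325534-119325833: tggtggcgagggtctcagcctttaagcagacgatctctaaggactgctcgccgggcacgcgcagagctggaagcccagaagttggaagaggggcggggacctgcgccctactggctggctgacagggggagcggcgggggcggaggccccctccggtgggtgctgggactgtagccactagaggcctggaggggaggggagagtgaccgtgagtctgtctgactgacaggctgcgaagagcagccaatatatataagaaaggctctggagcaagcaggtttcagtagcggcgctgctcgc
Rbpj, plus strand, chr5:53590096-53590395: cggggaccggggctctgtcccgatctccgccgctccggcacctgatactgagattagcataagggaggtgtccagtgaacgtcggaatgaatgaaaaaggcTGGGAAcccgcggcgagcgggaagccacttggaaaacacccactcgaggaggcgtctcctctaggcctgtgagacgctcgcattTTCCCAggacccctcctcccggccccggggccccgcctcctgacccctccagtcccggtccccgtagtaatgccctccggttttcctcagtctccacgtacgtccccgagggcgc
The Rbpj window held the core at 149 and 65 bases before the start site, once in each orientation, and a second Rbpj window, chr5:53590236-53590535, shared the latter match. Of all 32851 windows of this length 25.6% held the core on either strand. Neither the ETS core CCGGAA nor the GATA letters AGATAA, searched on both strands and present in 14.9% and 11.2% of all windows, occurred in the windows of the 5 genes. The windows held between 55.7% and 73% G and C, against a median of 52.7% over all windows. A match of letters is a description and not a bound site.

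Dll4, a Delta ligand known from arterial and sprouting endothelium, was read mostly in endothelial-gated cells. The gate held 41 Dll4 UMIs in WT, or 40.8 CPM (29.3 to 55.4), and 58 in KO, or 46.1 CPM (35.0 to 59.6). It thereby held 64.1% of all 64 WT and 72.5% of all 80 KO Dll4 UMIs. The stem gate held 2 and 3 Dll4 UMIs, a level 121-fold lower in WT (31.5 to 1037) and 63.7-fold lower in KO (20.8 to 318). No other class held more than 7 Dll4 UMIs in a library, and the 1417 WT erythroid-gated cells held 7, or 0.136 CPM. After thinning, Dll4 was seen in 25.0% of WT (14.4 to 38.4) and 25.6% of KO (16.4 to 36.8) endothelial-gated cells, against 0 of 1417 WT erythroid-gated cells, which allows a share of up to 0.212%, and 0.0487% of the KO ones. The median depth was 14080.5 UMIs in WT and 12868.5 in KO endothelial-gated cells, and 34087 and 22574 in erythroid-gated cells. Unthinned, 33.9% and 44.9% of endothelial-gated cells carried a Dll4 UMI.

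Jag1, the Jagged ligand, was close to absent at this depth. All kept cells held 26 Jag1 UMIs in WT and 24 in KO, of which 16 and 15 lay in ungated cells, or 0.427 CPM (0.244 to 0.694) and 0.526 CPM (0.294 to 0.867). No marker-gated class held more than 2 Jag1 UMIs in a library.

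Notch1, the receptor through which T cell and arterial fates are set, had its highest levels in the endothelial and the lymphoid gate. Endothelial-gated cells held 123 Notch1 UMIs in WT, or 122.5 CPM (102 to 146), and 153 in KO, or 121.6 CPM (103 to 142). Lymphoid-gated cells held 168 in WT, or 108 CPM (92.7 to 126), and 119 in KO, or 99.1 CPM (82.1 to 119). The intervals of these 2 gates overlapped each other and no other class in either library. Stem-gated cells were lower, with 187 UMIs or 31.4 CPM in WT (27.1 to 36.3) and 96 UMIs or 23.1 CPM in KO (18.8 to 28.3). The endothelial level was thus 3.897-fold the stem level in WT (3.08 to 4.92) and 5.25-fold in KO (4.04 to 6.85), and the lymphoid level 3.45-fold (2.78 to 4.27) and 4.28-fold (3.25 to 5.67). Below the stem gate in WT came monocyte-gated cells at 27.0 CPM, ungated cells at 22.8, hepatocyte-gated cells at 18.9, macrophage-gated cells at 16.9 and neutrophil-gated cells at 14.6, each overlapping its neighbour in this order. Megakaryocyte-gated and erythroid-gated cells stood apart at the bottom in WT, at 1.98 and 1.91 CPM, and in KO at 5.24 and 2.22 CPM, where the megakaryocyte interval reached that of the hepatocyte gate. After thinning, a Notch1 UMI was seen in 44.6% of WT and 55.1% of KO endothelial-gated cells, 27.6% and 32.3% of lymphoid-gated cells, 15.5% and 11.7% of stem-gated cells, and 0.353% and 0.730% of erythroid-gated cells.

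Notch2, the second receptor, followed another order. Its level was highest in monocyte-gated cells, with 45 UMIs or 17.6 CPM in WT (12.8 to 23.6) and 29 UMIs or 16.9 CPM in KO (11.3 to 24.3). These intervals overlapped those of the next class, macrophage-gated cells in WT and hepatocyte-gated cells in KO. Stem-gated cells held 70 and 46 UMIs, or 11.8 and 11.1 CPM, and lymphoid-gated cells 16 and 13 UMIs, or 10.3 and 10.8 CPM. The endothelial gate held no Notch2 UMI in WT and 3 in KO, or 2.38 CPM (0.492 to 6.97). Set against the limit that a count of 0 allows in the WT endothelial gate (3 UMIs), Notch2 was at least 3.94-fold higher in WT stem-gated cells, and in KO it was 4.65-fold higher in stem-gated than in endothelial-gated cells, with the endothelial to stem ratio between 0.0428 and 0.669. With the counting error of both gates the WT endothelial to stem ratio could be as high as 0.321. The KO value rested on 3 UMIs, 1 without doublet calls, and with Seurat clusters in place of gates its log2 ratio turned from -2.22 to 0.53 (-0.16 to 1.23). Without a cluster of 4 WT and 101 KO cells it was -1.46 (-2.99 to -0.20). In the endothelial gate Notch1 was thus at its highest level in both libraries, and Notch2 at its lowest level in WT and, in KO, level with the megakaryocyte gate at 2.38 CPM. The WT endothelial interval of Notch2 (0 to 3.67 CPM) overlapped those of the megakaryocyte and hepatocyte gates.

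**Figure D1:**
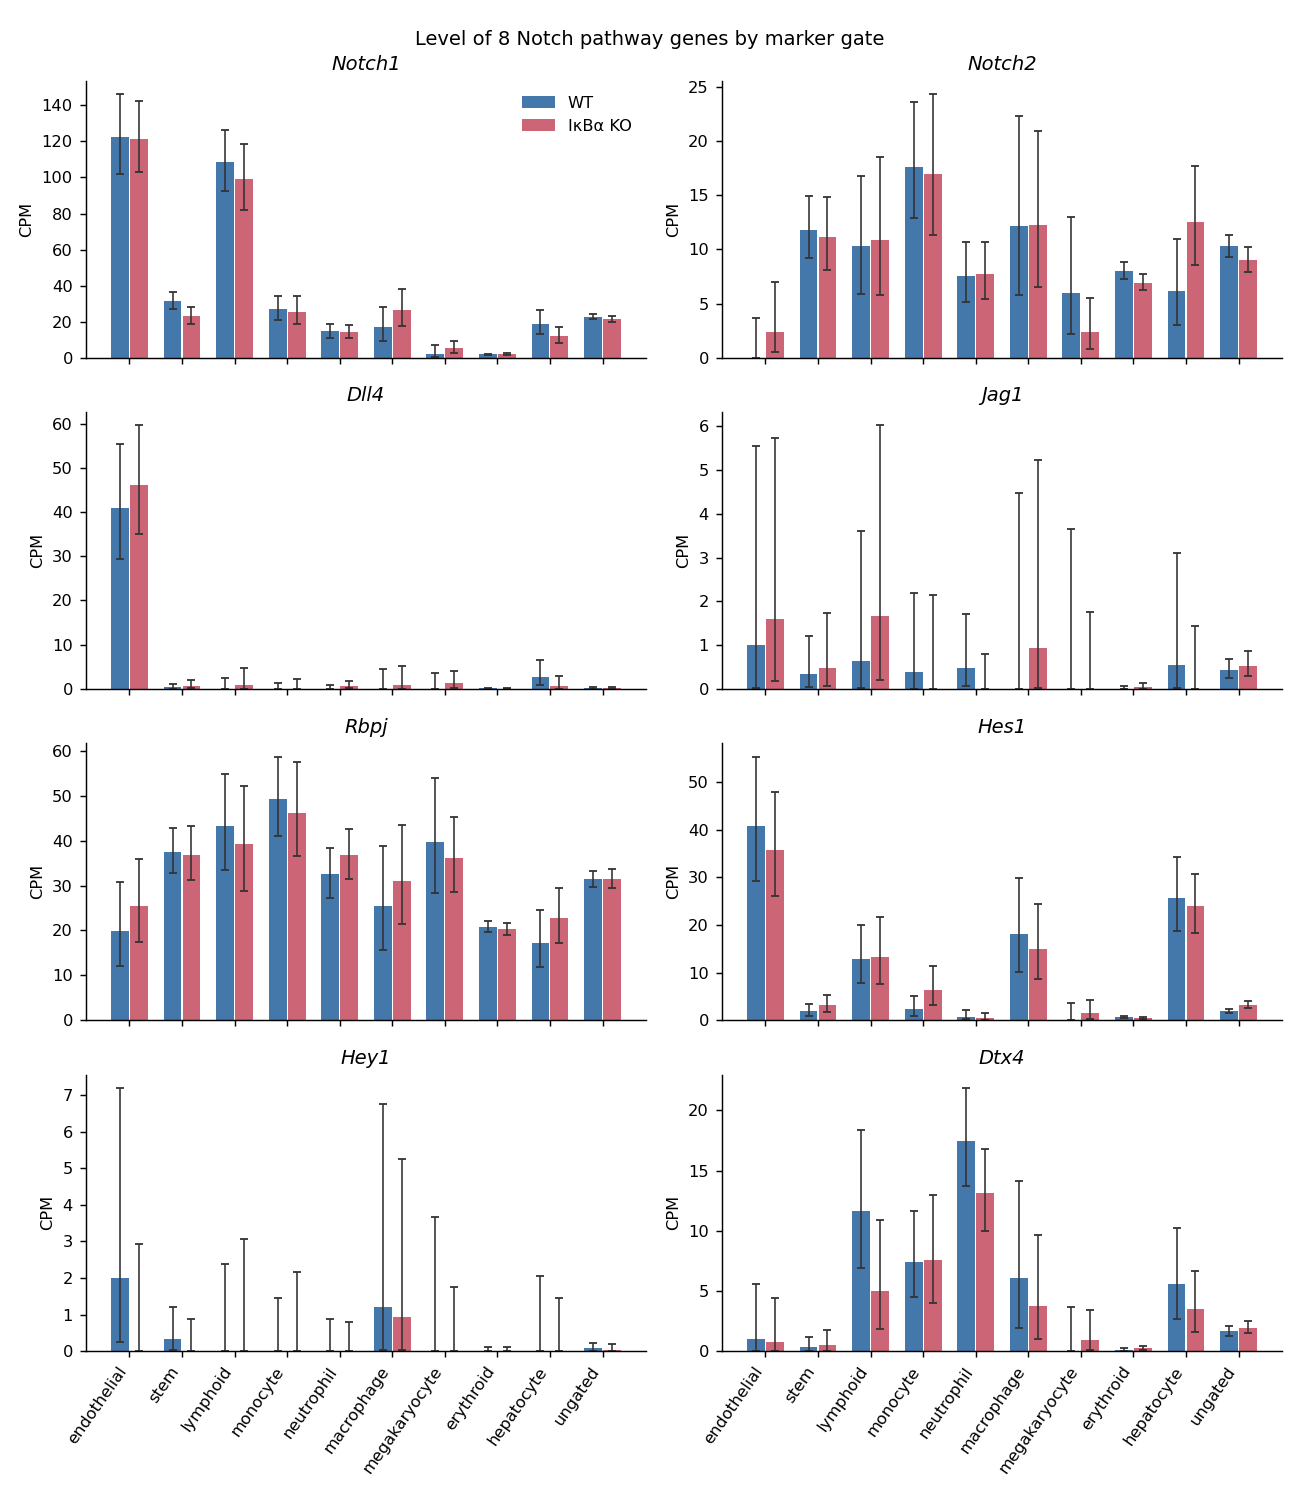
Level of the 8 genes in CPM (vertical axes, each from 0 with its own scale) in 9 marker gates and in ungated cells, WT in blue and IκBα KO in red, 1 library each; error bars are exact 95% Poisson intervals for counting error. Notch1 peaks in the endothelial and lymphoid gates, Dll4 in the endothelial gate, Dtx4 in the neutrophil gate, and Rbpj lies between 17.3 and 49.3 CPM everywhere, while Jag1 and Hey1 stay under 2 CPM.

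Rbpj, the DNA-binding protein that all Notch receptors share, was present in every class. Its level ran from 17.3 CPM in hepatocyte-gated to 49.3 CPM in monocyte-gated cells in WT, and from 20.3 CPM in erythroid-gated to 46.1 CPM in monocyte-gated cells in KO. Stem-gated cells held 223 and 153 UMIs, or 37.5 CPM (32.7 to 42.7) for WT and 36.9 CPM (31.3 to 43.2) for KO. Lymphoid-gated cells held 67 and 47 UMIs, or 43.3 and 39.2 CPM. Endothelial-gated cells held 20 and 32 UMIs, or 19.9 CPM (12.2 to 30.8) and 25.4 CPM (17.4 to 35.9). The endothelial level was 0.531 of the stem level in WT (0.318 to 0.841) and 0.689 in KO (0.456 to 1.01), so that the interval left out equality in WT and not in KO. The spread of Rbpj over the classes was under 3-fold in each library, against the far wider spread of Notch1 and Dll4.

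Hes1, a basic helix-loop-helix repressor and a direct Notch target that other pathways also induce, was highest in the endothelial gate, with 41 UMIs or 40.8 CPM in WT (29.3 to 55.4) and 45 UMIs or 35.8 CPM in KO (26.1 to 47.9). Hepatocyte-gated cells followed at 25.6 and 23.9 CPM, macrophage-gated cells at 18.2 and 15.0, and lymphoid-gated cells at 12.9 CPM (20 UMIs) and 13.3 CPM (16 UMIs), with overlapping intervals between neighbours. Stem-gated cells held only 11 and 13 UMIs, or 1.85 CPM (0.923 to 3.31) and 3.13 CPM (1.67 to 5.36). The endothelial level of Hes1 was 22.1-fold that of stem-gated cells in WT (11.1 to 47.6) and 11.4-fold in KO (6.05 to 23.1), and the lymphoid level 6.98-fold (3.19 to 16.1) and 4.25-fold (1.92 to 9.61). Of the macrophage-gated cells, 20 of 25 in WT and 41 of 52 in KO also passed another gate, and of the hepatocyte-gated cells 15.6% and 23.9% were called doublets, and the part of these cells in the Hes1 level of those classes was not tested. Hey1, a related repressor and target, gave 9 UMIs in all WT and 3 in all KO cells. The endothelial gate held 2 Hey1 UMIs in WT and none in KO, where a count of 0 allows up to 2.38 CPM.

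Dtx4, a Deltex ubiquitin ligase of the kind that acts on Notch receptors in the endosome, had its highest level in neutrophil-gated cells. Neutrophil-gated cells held 74 UMIs in WT, or 17.4 CPM (13.7 to 21.9), and 61 in KO, or 13.1 CPM (10.0 to 16.8), which was 37.2% and 36.7% of all its UMIs. Lymphoid-gated cells held 18 and 6 UMIs, or 11.6 CPM (6.89 to 18.4) and 4.998 CPM (1.83 to 10.9), and monocyte-gated cells 19 and 13 UMIs, or 7.44 and 7.58 CPM. Hepatocyte-gated cells held 10 and 9 UMIs, or 5.57 and 3.53 CPM, and 31.2% and 33.7% of all Dtx4 UMIs lay in ungated cells. Stem-gated cells held 2 Dtx4 UMIs in each library and endothelial-gated cells 1. Within the neutrophil gate, cells with UMIs of later granule genes stood at 18.0 CPM in WT and 14.54 in KO, and cells without them at 16.9 and 11.7, with overlapping intervals.

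The endothelial gate was examined further, since a ligand, a receptor and a target met there. Counted on all UMIs, where detection also depends on depth, 42 of 56 WT endothelial-gated cells carried a Notch1 UMI, 19 a Dll4 UMI and 14 both. In KO these numbers were 65, 35 and 31 of 78 cells. Dll4 was seen in 33.3% of Notch1-carrying and 35.7% of Notch1-lacking WT cells, and in 47.7% and 30.8% of the KO cells, so ligand and receptor transcripts were found in the same cells as well as apart. Hes1 was seen in 42.9% of Notch1-carrying and 50% of Notch1-lacking WT cells, and in 35.4% and 38.5% of KO cells. After thinning, Hes1 was seen in 28% and 22.6% of these groups in WT, the other direction, and in 16.3% and 20% in KO. Dll4 was then seen in 20% and 29.0% in WT and in 27.9% and 22.9% in KO. Fetal liver sinusoids express Stab2, and the gate held 398 Stab2 UMIs in WT and 433 in KO. The cells were split by their Stab2 count after thinning, which discards part of these UMIs. Cells with under 5 thinned Stab2 UMIs (50 WT and 71 KO cells) held Dll4 at 38.8 and 43.3 CPM. The 6 WT and 7 KO cells with 5 or more held Dll4 at 65.1 CPM (21.1 to 152) and 87.6 CPM (35.2 to 180). These levels rested on 5 and 7 Dll4 UMIs, and the intervals overlapped. Scrublet called 10.7% of WT and 12.8% of KO endothelial-gated cells doublets, and without them Notch1 stood at 145.5 CPM in WT and 144.7 in KO. Of the endothelial-gated cells 15 in WT and 24 in KO also passed another gate. The 41 WT and 54 KO cells that passed this gate alone held 22 and 38 Dll4 UMIs, 89 and 99 Notch1 UMIs, and 31 and 33 Hes1 UMIs. The summed level of the erythroid marker list in this gate was 389 and 409 CPM, that of the hepatocyte list 332 and 299, that of the megakaryocyte list 420 and 173, and that of the macrophage list 307 and 237, against 4202 and 3539 CPM for the endothelial list. The part of these transcripts of other cell types in the levels above was not tested.

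Along the lymphoid markers, Notch1 and Hes1 were followed through cells that were ungated or lymphoid-gated. Notch1 stood at 18.5 CPM in WT and 15.7 in KO where no lymphoid marker was seen, at 48.0 and 55.3 with 1 marker, at 95.8 and 103 with 2, and at 193 CPM (137 to 264) and 89.4 CPM (60.8 to 127) with 3 or more. The last group was small, with 7 WT and 18 KO cells, and it was the only step at which the Notch1 intervals of WT and KO did not overlap. Hes1 stood at 1.69 and 2.35 CPM with no marker, at 3.10 CPM (1.81 to 4.97) and 7.996 CPM (5.54 to 11.2) with 1 marker, at 11.9 and 8.20 with 2, and at 19.8 and 26.0 with 3 or more. Within the lymphoid gate, cells were split by whether a UMI of the interleukin-7 receptor transcript Il7r was seen after thinning. Cells with one held Hes1 at 16.6 CPM in WT and 25.5 in KO, on 10 and 15 UMIs. Cells without one held Hes1 at 10.6 CPM (5.07 to 19.4) and 1.63 CPM (0.0414 to 9.10), on 10 UMIs and 1. The latter can include cells whose Il7r UMIs were discarded by thinning. In KO, but not in WT, the Hes1 intervals of cells with and without a thinned Il7r UMI did not overlap. Notch1 stood at 139 and 104 CPM in cells with a thinned Il7r UMI, and at 88.8 and 94.7 CPM in cells without one.

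Along the erythroid markers the receptors went the other way. Notch2 stood at 11.4 CPM in WT and 10.48 in KO in erythroid-gated cells with 3 markers, and at 3.55 and 3.95 CPM in those with 7 or 8, where the intervals no longer overlapped those at 3. Notch1 went from 3.96 and 4.01 CPM to 0.818 CPM on 3 UMIs in WT and none in KO. Rbpj went from 24.9 and 23.4 CPM to 15.6 and 19.8 CPM. In stem-gated cells the level of Notch1 was 26.0 CPM in WT and 21.7 in KO with 2 stem markers, and 39.7 (32.0 to 48.5) and 26.4 (18.3 to 36.8) with 3 or more. Numbers of detected markers also depend on which transcripts a thinned cell happened to keep, so these steps order cells only roughly.

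**Figure D2:**
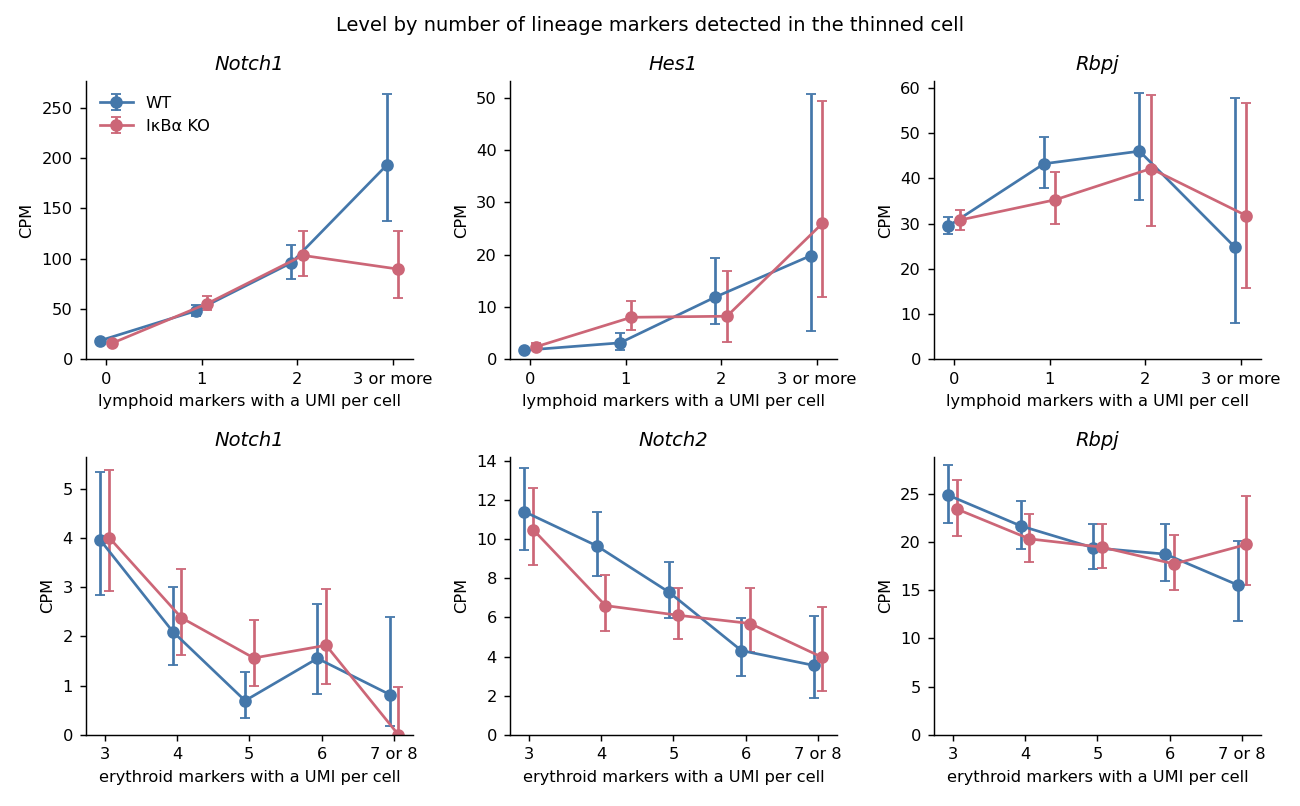
Level in CPM (vertical axes from 0) against the number of lymphoid markers with a UMI per thinned cell, for Notch1, Hes1 and Rbpj in ungated and lymphoid-gated cells (upper row), and of erythroid markers, for Notch1, Notch2 and Rbpj in erythroid-gated cells (lower row), WT in blue and IκBα KO in red with exact 95% Poisson intervals. Notch1 goes from 18.5 and 15.7 CPM without lymphoid markers to 95.8 and 103 with 2, and Notch2 from 11.4 and 10.48 to 3.55 and 3.95 CPM along the erythroid markers.

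The genotypes were then compared gene by gene. A ratio was formed only for genes with at least 20 UMIs over both libraries, and a change was counted where it passed 1.5-fold. In the endothelial gate 4 of the 8 genes had enough UMIs and none passed 1.5-fold, where 17.1% of all 8273 genes with that many UMIs did. In the stem gate 4 had enough and 1 passed, Hes1, against 8.02% of 10862 genes. In the lymphoid gate 5 had enough and 1 passed, Dtx4, against 15.6% of 8041 genes. The median log2 KO/WT of the measurable members was 0.08, -0.05 and -0.13 in these gates, against 0.03, 0.01 and 0.05 over all genes. These shares of 0 or 1 gene are too small to set the Notch genes apart from the rest.

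In endothelial-gated cells the KO to WT differences of the Notch axis were within counting error. The log2 KO/WT of Notch1 was -0.01 (-0.36 to 0.34), that of Dll4 0.17 (-0.43 to 0.79), that of Hes1 -0.19 (-0.83 to 0.46) and that of Rbpj 0.35 (-0.50 to 1.24). The intervals of Dll4, Hes1 and Rbpj each reached past 1.5-fold in one direction, and that of Notch1 in neither. Without doublet calls Rbpj passed 1.5-fold, at 13.6 and 24.5 CPM and a log2 KO/WT of 0.85 (-0.29 to 2.09), and with Seurat clusters Hes1 did, at -0.64 (-1.22 to -0.05), or -0.10 without the cluster of 4 WT and 101 KO cells.

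In stem-gated cells Notch1 had the lower level in KO. Its log2 KO/WT was -0.44 (-0.81 to -0.08), or 0.736 of the WT level. The ratio stayed below 0 in all 13 alternatives of processing, between -0.59 and -0.24, but these are not independent. Other cell filters and scalings kept the same 187 and 96 UMIs, and both cluster settings held the same 158 and 84. Its interval held 0 with a second random thinning, at -0.24 (-0.58 to 0.11), and with Seurat clusters, at -0.28 (-0.68 to 0.11). The share of thinned cells with a Notch1 UMI differed by -3.80 points (-9.18 to 1.61), which also held 0. Cells with UMIs of proliferation genes stood at 31.6 CPM in WT and 24.3 in KO, and cells without them at 30.9 and 17.2 CPM, with overlapping intervals in both cases. Over ungated cells Notch1 differed by -0.08 (-0.23 to 0.07) on the log2 scale, and over all kept cells by -0.20 (-0.30 to -0.09). The median stem-gated cell held 15600 UMIs in WT and 11005.5 in KO. The summed megakaryocyte markers stood at 101 CPM in WT and 304 in KO in this gate, the macrophage markers at 7.56 and 49.2 and the hepatocyte markers at 73.8 and 139. The part of depth and of these transcripts in the Notch1 ratio was not tested. Notch2 and Rbpj differed by -0.09 (-0.66 to 0.47) and -0.02 (-0.33 to 0.28). Hes1 passed 1.5-fold on 24 UMIs alone, with a log2 KO/WT of 0.76 whose interval held 0 (-0.51 to 2.06).

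In lymphoid-gated cells Dtx4 had a log2 KO/WT of -1.22 (-2.84 to 0.18) on 18 and 6 UMIs, so the interval held 0. Gating on all UMIs instead of thinned cells turned its sign, to 0.30. In this gate the summed neutrophil markers stood at 570 CPM in WT and 356 in KO and the summed lymphoid markers at 387 and 559, with Ly6d alone at 0.645 and 68.3, and their part in the Dtx4 ratio was not tested. Notch1 differed by -0.13 (-0.48 to 0.22), Rbpj by -0.14 (-0.71 to 0.42), Hes1 by 0.05 (-0.999 to 1.07) and Notch2 by 0.07 (-1.11 to 1.22).

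Outside these gates Hes1 was higher in ungated KO cells, with 71 UMIs or 1.90 CPM in WT (1.48 to 2.39) and 91 UMIs or 3.19 CPM in KO (2.57 to 3.92), a log2 KO/WT of 0.75 (0.29 to 1.22). The ungated cells with 1 lymphoid marker carried 17 of these UMIs in WT and 34 in KO. Hepatocytes are a Hes1-rich class here, and their transcript Alb stood at 11.97 CPM in WT and 21.1 in KO in ungated cells. With clusters of cells in place of gates the ratio over cells in no named cluster was 0.17. Those 2120 WT and 2613 KO cells were a different set, with 31 Hes1 UMIs in each library, and included a cluster led by haemoglobin genes. The part of cells with 1 lymphoid marker or of hepatocyte transcripts in the Hes1 ratio was not tested. Over all kept cells Hes1 had a log2 KO/WT of 0.28 (0.04 to 0.54). Notch2 was lower in KO over all kept cells, at -0.18 (-0.32 to -0.05), and in erythroid-gated cells, at -0.21 (-0.42 to -0.01), and higher in hepatocyte-gated cells, at 1.03 (0.01 to 2.17) on 11 and 32 UMIs. Notch1 passed 1.5-fold in macrophage-gated cells, at 0.64 (-0.34 to 1.67), and in hepatocyte-gated cells, at -0.64 (-1.39 to 0.11), and both intervals held 0. In neutrophil-gated cells Dtx4 differed by -0.41 (-0.92 to 0.10). The intervals of Rbpj held 0 in every class.

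**Figure D3:**
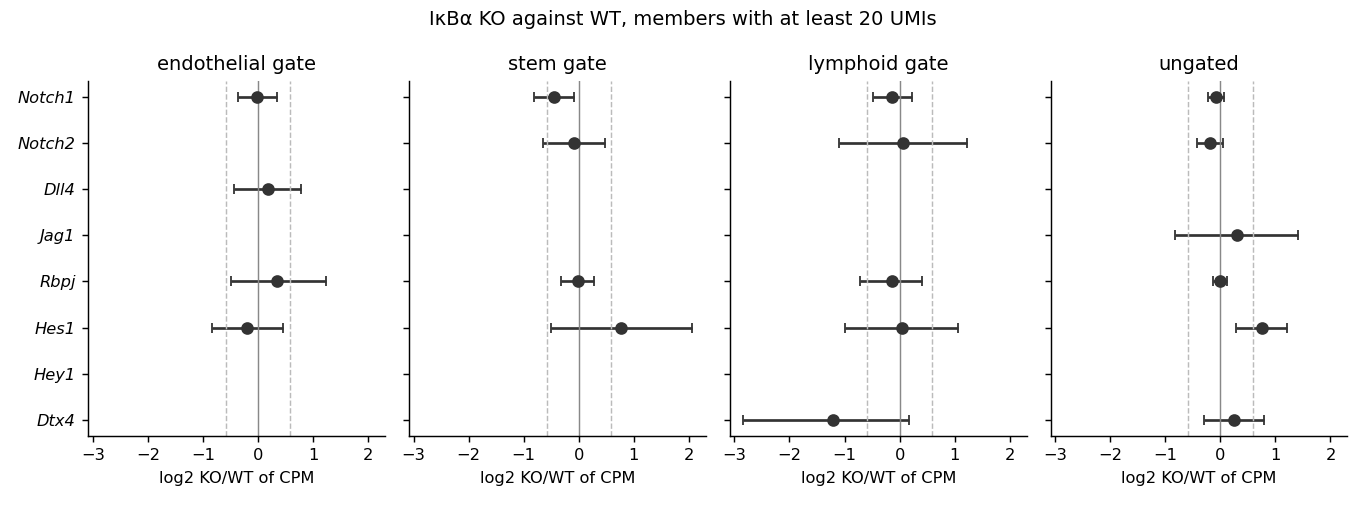
log2 of IκBα KO over WT CPM (horizontal axis) for the members with at least 20 UMIs over both libraries, in 3 gates and in ungated cells, with exact 95% conditional intervals for counting error. The solid line marks no difference and the dashed lines 1.5-fold; the intervals of Notch1 in the stem gate and of Hes1 in ungated cells leave out 0.

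The KO library mixed male and female cells, which allowed its embryos to be compared by sex. A cell was read as male with Y-linked but no Xist UMIs and as female with the reverse. Cells with both or neither were left out. In endothelial-gated cells Notch1 stood at 157 CPM in 10 male and 110 CPM in 57 female cells and Dll4 at 57.8 and 50.2 CPM, with log2 male to female ratios of 0.51 (-0.28 to 1.24) and 0.20 (-1.20 to 1.37). In stem-gated cells Notch1 stood at 22.5 CPM in 38 male and 23.0 CPM in 256 female cells. In erythroid-gated cells Notch1 gave 2 UMIs in 405 male cells, or 0.200 CPM (0.0243 to 0.724), and 56 in 1375 female cells, or 1.67 CPM (1.26 to 2.17). The whole KO erythroid gate held 2055 cells and 114 Notch1 UMIs, and the remaining UMIs lay in cells of unresolved sex. Among erythroid-gated cells of known sex with 3 or 4 erythroid markers, 172 male cells held none and 562 female cells 41. Their mean was 3.54 and 3.60 markers per cell. Rbpj went in the other direction there, at 23.7 CPM in male and 19.4 CPM in female cells, a log2 ratio of 0.29 (0.07 to 0.51). With at most 3 embryos in the pool, sex and embryo cannot be told apart.

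The other genes of the pathway, 57 in number and sorted by role, were read in the same gates. In the endothelial gate 33 had enough UMIs, 3 passed 1.5-fold upwards and 4 downwards in KO, and the median log2 KO/WT was -0.05. In the stem gate 2 of 38 passed upwards and 3 downwards, with a median of -0.04, and in the lymphoid gate 2 of 27 and 3, with a median of -0.04. As shares these were 21.2%, 13.2% and 18.5%, beside 17.1%, 8.02% and 15.6% of all genes. Hdac1, a histone deacetylase found in RBPJ corepressor complexes and in many others, was the listed gene with most UMIs past 1.5-fold. It stood at 173 CPM in WT and 89.8 in KO endothelial-gated cells, a log2 ratio of -0.95 (-1.30 to -0.60), and at 128 and 81.5 CPM in stem-gated cells, a log2 ratio of -0.65 (-0.84 to -0.46). In lymphoid-gated cells it stood at 101 and 96.6 CPM, a log2 ratio of -0.06 (-0.42 to 0.30). Ncstn, a subunit of the γ-secretase that frees the receptor's intracellular part, stood at 19.7 and 12.5 CPM in stem-gated cells, a log2 ratio of -0.65 (-1.15 to -0.17). Dlk1, a Delta-like protein that lacks the domain by which ligands bind Notch, stood at 55.8 and 35.0 CPM in endothelial-gated cells, a log2 ratio of -0.67 (-1.28 to -0.08). Spen, a corepressor partner of RBPJ, stood at 27.8 and 49.2 CPM in lymphoid-gated cells, a log2 ratio of 0.82 (0.23 to 1.43), and at 45.9 and 34.7 CPM in stem-gated cells, a log2 ratio of -0.40 (-0.70 to -0.11).

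Some listed genes with under 100 UMIs in a gate, named here after their values were seen, had intervals that left out 0. How many of all genes with so few UMIs had such intervals was not counted. Those with at least 20 UMIs included Furin in the stem gate, with 28 UMIs in WT and 39 in KO, a log2 ratio of 1.00 (0.26 to 1.75). In the endothelial gate they included Fbxw7, with 26 and 15, at -1.12 (-2.14 to -0.15), and Spen, with 18 and 43, at 0.93 (0.11 to 1.81). In lymphoid-gated cells the genes under 20 UMIs included the T-lineage genes Tcf7, with 1 UMI in WT and 17 in KO, a log2 ratio of 4.46 (1.78 to 9.84), Gata3, with 2 and 13, a log2 ratio of 3.07 (0.93 to 6.26), and Ptcra, with 1 and 9, a log2 ratio of 3.54 (0.69 to 8.99). The listed T-lineage genes Bcl11b and Il2ra held no UMI there in either library. The Fringe gene Lfng held 5 and 13 UMIs there, a log2 ratio of 1.75 (0.17 to 3.59). In endothelial-gated cells Gata3 held 8 UMIs in WT and 1 in KO, a log2 ratio of -3.33 (-8.80 to -0.43). The shift of the lymphoid and neutrophil marker sums between the lymphoid gates of WT and KO stood beside these values, and its part in them was not tested.

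By role, the listed gene with most UMIs was the same in the 3 gates for ligands, glycosyltransferases, proteases and nuclear cofactors. Among the receptors the endothelial Notch4 held 15.9 CPM in both libraries in the endothelial gate and had under 20 UMIs in the stem and lymphoid gates. Among the ligands Dlk1 led, at 66.7 and 66.5 CPM in the stem gate and 21.9 and 34.2 in the lymphoid gate. Among the glycosyltransferases it was Mfng, a Fringe enzyme that alters how receptors respond to ligands, at 54.8 and 46.1 CPM in the endothelial, 91.3 and 96.4 in the stem and 60.0 and 60.0 in the lymphoid gate. Among the proteases it was the γ-secretase subunit Psenen, at 181 and 176, 194.5 and 186, and 178 and 189 CPM. Among the nuclear cofactors it was the corepressor Ncor1, at 178 and 197, 204 and 183, and 169 and 177 CPM. Among the ligases Numb, an endocytic antagonist of Notch, led in the endothelial gate at 44.8 and 34.2 CPM, and the ubiquitin ligase Itch in the stem gate at 31.1 and 35.0 and the lymphoid gate at 31.6 and 25.0 CPM. Of the further target genes Nrarp, a feedback inhibitor of Notch signalling, led in the endothelial gate at 43.8 and 37.3 CPM. Hes6 led in the stem gate at 54.5 and 47.7 CPM and in the lymphoid gate at 117 and 141 CPM, with log2 ratios of -0.19 (-0.45 to 0.07) and 0.27 (-0.04 to 0.58).

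**Figure D4:**
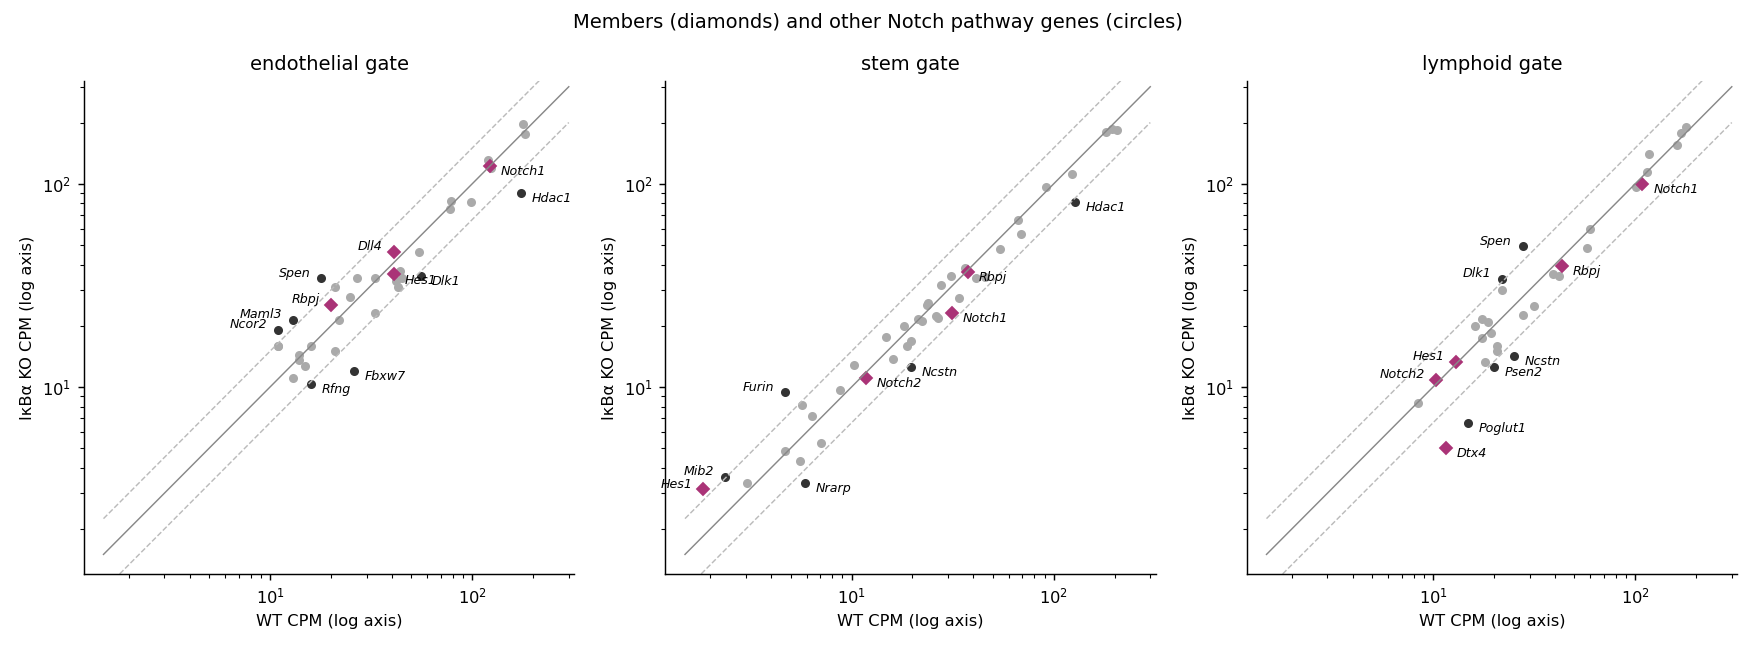
WT (horizontal) against IκBα KO (vertical) level in CPM, both log axes, for the members (diamonds) and the other pathway genes (circles) with at least 20 UMIs in the endothelial, stem and lymphoid gates. The solid line marks equality and the dashed lines 1.5-fold; black circles lie past 1.5-fold, among them Hdac1 at 173 and 89.8 CPM in the endothelial and 128 and 81.5 CPM in the stem gate.

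The genes whose levels ran most like those of the members were sought over 20 points, 10 classes in each of the 2 libraries, among 11452 genes. Dll4 ran closest to Adgrf5, Mmrn2 and Bace2, with Pearson r of 0.98 for each, the first 2 known from endothelium. Notch1 ran closest to Marcksl1, Map4k4 and Elk3, with r of 0.94. Hes1 ran closest to Ctsl at 0.95, Marcks at 0.92 and Sh3pxd2a at 0.91, Rbpj to Plcg2 at 0.92, Sh3bp1 and Celf2 at 0.91, Dtx4 to Ccl9 at 0.84, Plac8 at 0.83 and Tifab at 0.82, and Notch2 to Ttc7, Adcy7 and Isoc1 at 0.81, 0.81 and 0.80. Among the members themselves r was 0.71 for Notch1 with Hes1, 0.61 for Dll4 with Hes1, 0.18 for Notch1 with Rbpj and -0.81 for Dll4 with Notch2. The points share 2 libraries and differ in depth, and these values are a description.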

How the data were processed

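The 2 droplet libraries, 1 per genotype, were analysed. Per the study's methods, the authors aligned the reads to mm10 (GRCm38) with Cell Ranger 6.0.0, and they deposited filtered matrices of raw UMI counts per gene and cell, which were used as deposited. Levels were computed as the summed UMIs of a gene over the summed UMIs of the cells of a class, per 1000000 (CPM). Cells were thinned to 5000 UMIs, and a class needed a minimum of its listed markers: endothelial 4 of 9, stem 2 of 8, lymphoid 2 of 9, neutrophil 4 of 8, monocyte 3 of 7, erythroid 3 of 8, megakaryocyte 4 of 9, macrophage 4 of 8 and hepatocyte 5 of 8. A cell that passed several gates (113 in WT and 211 in KO) went to the class with the highest share of its markers, and ties (5 in each library) and the 2 WT and 1 KO cells of a mesenchymal gate were set aside, as were 57 WT and 101 KO cells under 5000 UMIs. The gate minimums were set after the marker counts were seen, and the members and lists were chosen with earlier results of these data known. Doublets were called with Scrublet in scanpy 1.11.5 (3.90% of WT and 5.80% of KO cells) and kept, with an alternative without them. Intervals are exact (Poisson, Clopper-Pearson and conditional binomial, scipy 1.17.1). Those of ratios were checked on simulated Poisson counts, the model they assume, so the check could not show their coverage where UMIs cluster within cells. Of the 20 Rbpj UMIs in WT endothelial-gated cells, 7 lay in 1 cell. Genes named beyond the 8 members were those of the pathway list past 1.5-fold with at least 100 UMIs over both libraries, the gene with most UMIs of each role, and the 3 genes most like each member with at least 100 UMIs, by Pearson r of log2(CPM + 1) among genes with at least 200 UMIs. Listed genes with fewer UMIs were named after their values were seen. Clusters were made in Seurat 5.3.0 with 20 principal components at resolution 0.5. With 1 library per genotype no p-value was computed, and embryo, library and genotype cannot be told apart. The alternatives were other cell filters, gates, thinning, scaling, clusters and female cells alone.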

Additional observations from a re-analysis of the deposited data

Results flagged for a closer look

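Notch2 differed between genotypes in opposite directions in a pair of classes. Its log2 KO/WT was 1.03 (0.01 to 2.17) in hepatocyte-gated cells, on 11 UMIs in WT and 32 in KO, and -0.21 (-0.42 to -0.01) in erythroid-gated cells, on 413 and 356 UMIs. Both intervals lay on 1 side of 0 by a narrow margin and cover counting error only, and the difference between the classes was not tested. Of the hepatocyte-gated cells, 9 of 32 in WT and 17 of 71 in KO passed another gate, and 15.6% and 23.9% were called doublets.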

How the results depend on the processing

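Of 494 values recomputed under an alternative, 461 stayed within the counting interval of the reported value (for counts of genes, within 1.5 times), 32 moved beyond it and 1 reversed. The thinning draws, the 8000-UMI thinning, the restriction to cells that pass 1 gate and the clusters without the one mostly of 1 library were chosen after seeing the data. Notch1 in the stem gate kept a log2 KO/WT below 0 in 13 of 13 alternatives, from -0.59 to -0.24. Several of these reuse the same stem-gated cells and UMIs, and the interval held 0 under a second thinning and under clusters. With 1 more marker per gate, which left 7 WT and 18 KO lymphoid cells, the log2 KO/WT of lymphoid Notch1 was -1.11, its WT lymphoid to stem ratio 2.29, and that of Rbpj -0.73 in WT and -0.52 in KO. With gates read on all UMIs the lymphoid KO/WT of Notch1 was 0.25 and that of Dtx4 0.30. With Seurat clusters the endothelial KO/WT of Notch1 was -0.42, the lymphoid KO/WT of Hes1 1.11, and the KO endothelial to stem ratios 1.62 for Notch1 and 2.44 for Hes1, and that of Notch2 turned to 0.53. An endothelial-named cluster of 4 WT and 101 KO cells entered those values, and without it, of these values, only that of Hes1 in the lymphoid class, again 1.11, lay outside. A second thinning put the WT lymphoid to stem ratio of Rbpj at -0.22, and thinning to 8000 UMIs that of Hes1 in KO at 3.34. The pathway genes past 1.5-fold numbered 2, 2 and 1 in the endothelial, stem and lymphoid gates at a minimum of 100 UMIs, and 13, 14 and 20 at 1 UMI. At 100 UMIs these were 20%, 7.14% and 9.09% of 10, 28 and 11 genes, beside 5.52%, 1.73% and 3.93% of all genes, and at 1 UMI 27.1%, 26.9% and 43.5% of 48, 52 and 46, beside 39.8%, 27.7% and 39.2%. Without thinning, the KO minus WT share of cells was -12.9 points for stem and -19.3 for lymphoid Notch1, -5.52 for stem Notch2, and 14.2, -12.9 and -22.6 for endothelial, stem and lymphoid Rbpj. The cause of these moves was not tested. No paired analysis was possible because there was only 1 library for WT and 1 for KO. Genes with under 20 UMIs in a class, Hey1 and Jag1 foremost, could not be compared at this depth.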
